A study of Mus musculus with 8 samples.

Results

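Of the 8 genes described here, 7 encode glutathione transferases, namely Gstm1, Gstm2 and Gstm5 of the mu class, Gsta4 of the alpha class, Gstp1 of the pi class and the membrane-bound Mgst1 and Mgst3. The other gene, Prdx6, encodes peroxiredoxin 6. All 8 were among the 27998 genes of the single-cell table and the 55450 genes of the bulk table of mouse median eminence (ME), and all 8 passed the filter on low counts in bulk. They were chosen because several of them led tanycytes in the single cells and because Gstm2 was lower in the mutant bulk libraries. Their levels by cell cluster and their differences between wild-type and mutant libraries are therefore descriptions, and no test is given for them.

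Glutathione transferases join the tripeptide glutathione to electrophilic molecules, which makes these less reactive and easier to export. The soluble alpha, mu and pi classes share this chemistry but differ in their preferred substrates, and Gsta4 is known for its activity on 4-hydroxynonenal, a product of lipid peroxidation. The microsomal enzymes belong to a separate family of membrane proteins. Peroxiredoxin 6 reduces hydrogen peroxide and phospholipid hydroperoxides with a single catalytic cysteine, and takes its reducing power from glutathione with the help of the pi-class transferase. Tanycytes are radial cells that line the floor of the third ventricle, where they meet both cerebrospinal fluid and blood from fenestrated capillaries.

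The single-cell library was a pool of the ME of 10 female wild-type C57BL/6 mice, aged 2 months by the labels. The ME was dissociated with papain and the cells were captured in droplets, where the 3' end of each transcript received a molecular barcode, so that transcripts (UMIs) rather than reads were counted. The bulk libraries were made from the microdissected ME region with the Smart-seq2 method. Of these, 3 came from wild-type mice (wt) and 4 from Rax::BrafV600E mutant mice (mut), all labelled C57BL/6 and 2 months of age. In the mutants, tamoxifen switches on the BRAF V600E oncoprotein in cells that express Cre from Rax, which in this tissue marks tanycytes. Each bulk library came from a single mouse by the study's methods, which count time from the tamoxifen injection, so the age at dissection is less certain than the label. Gene counts do not separate the mutant Braf allele from the normal one, and Rax itself overlapped between the groups (26.8 to 143 normalized counts per 1000000 in wt and 33.2 to 175 in mut). The paper reports that such mutants had formed a tumor in the ME by then, and it treats the mut libraries as tumor tissue. The comparison of wt with mut thus sets normal ME against tumor-bearing ME. The single-cell library asks which cells of the normal ME hold each transcript.

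The 3 mu-class members lie within a run of 7 Gstm genes that spans 149.1 kb of chromosome 3 (GRCm38, GENCODE M21). Gstm2 occupies chr3:107981702-107986453 on the minus strand, Gstm1 chr3:108012255-108017973 on the minus strand and Gstm5 chr3:107895821-107898686 on the plus strand. Gsta4 is at chr9:78182774-78209349 (plus strand), Gstp1 at chr19:4035407-4037985 (minus), Mgst1 at chr6:138140316-138156755 (plus), Mgst3 at chr1:167371966-167393841 (minus) and Prdx6 at chr1:161240112-161251219 (minus). Near-identical copies could share reads with some of them. Of the 50-base stretches in their transcripts, 33.7% of those of Gstp1, 18.9% of Gstm1 and 5.65% of Gstm2 also occurred in transcripts of another gene, most often Gstp2, the pseudogene Gstm2-ps1 and the gene model Gm12499, in that order. The share was 0.136% for Prdx6 and 0% for the other 4 members, so counts of Gstp1 and Gstm1 are the least certain. Gstm5 overlaps the antisense gene 4933431E20Rik, and the bulk method does not mark strand.

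RefSeq promoter windows (GRCm38.p6, 250 bases before to 50 after a start site) were found for 6 of the 8 members, in 8 windows. Gsta4 and Prdx6 were not among them. The core of the antioxidant response element, the site through which the factor Nrf2 acts on many transferase genes (TGACNNNGC, both strands), stood in 1 window of Gstm5 and 1 of Mgst1, and in 12.4% of all 32851 promoter windows. The TATA box (TATAAA) was held by 1 window each of Gstm5 and Gstm1 and by 13.6% of all windows. It began 40 bases after the start site in Gstm5 and 30 bases before it in Gstm1. The GC box (GGGCGG) was held by windows of Gstm5, Mgst1, Mgst3 and Gstp1 and by 35.7% of all windows. Neither the Gstm2 window nor the upstream window of Gstm1 held any of the 3 motifs. The stretches upstream of the annotated exons of the 3 mu-class members are shown because these neighbours had unlike levels in both experiments described below, and the match in Mgst1 is shown with 10 bases on either side. Capitals mark motif matches, and each sequence is read in the direction of its gene.
Gstm2 (chr3:107986454-107986670, minus strand): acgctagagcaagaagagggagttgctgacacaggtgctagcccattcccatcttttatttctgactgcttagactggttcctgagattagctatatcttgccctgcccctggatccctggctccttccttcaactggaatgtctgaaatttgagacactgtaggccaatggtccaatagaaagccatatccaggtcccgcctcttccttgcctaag
Gstm1 (chr3:108017974-108018223, minus strand): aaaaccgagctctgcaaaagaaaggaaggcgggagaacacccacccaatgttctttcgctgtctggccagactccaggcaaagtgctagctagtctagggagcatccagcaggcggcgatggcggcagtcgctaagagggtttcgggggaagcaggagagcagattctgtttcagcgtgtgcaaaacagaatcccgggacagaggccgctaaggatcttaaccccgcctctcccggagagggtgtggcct
Gstm5 (chr3:107895604-107895820, plus strand): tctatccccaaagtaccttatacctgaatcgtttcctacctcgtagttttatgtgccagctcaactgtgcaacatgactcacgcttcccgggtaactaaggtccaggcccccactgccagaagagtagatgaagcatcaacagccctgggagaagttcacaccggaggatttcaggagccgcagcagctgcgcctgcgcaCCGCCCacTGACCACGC
Mgst1 (chr6:138140461-138140489, plus strand): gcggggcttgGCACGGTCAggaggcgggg
In Gstm5 a GC box and the response element core stood 2 bases apart, the latter beginning 42 bases before the start site. In Mgst1 the core lay on the opposite strand, 56 bases before the start site of the RefSeq window. That position is inside the gene as GENCODE gives it, which begins at chr6:138140316. A match describes these letters only and was not tested for binding.

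The single-cell table held 990 cells with a median of 7831.5 UMIs (3284 to 57119). Clustering without the 8 members and without the lists of related genes described below gave 11 clusters, which were named where at least 3 markers of a cell type stood at 3 times the level of all other cells. Cluster 2 (179 cells) passed for 10 of 12 tanycyte and 4 of 8 astrocyte markers and is called tanycyte-like. Cluster 7 (46 cells) was ependymal-like, with 7 of 8 ependymal markers and Cfap126 and Dynlrb2 in the lead, but it also passed for 6 of 12 tanycyte markers and for 5 of 8 astrocyte markers. Its Rax level of 598 UMIs per 1000000 (CPM) was close to the 539.5 CPM of cluster 2. Clusters 2 and 7 are called the tanycyte-marker clusters below, a limit of 6 markers that was set after the data were seen. The other named clusters were erythrocyte-like (242 cells), VLMC-like (vascular and leptomeningeal cells, 180 cells), macrophage or microglia-like (81 cells), OPC-like (oligodendrocyte precursor cells, 60 cells), pars tuberalis cell-like (55 cells), neuron-like (49 cells), oligodendrocyte-like (44 cells) and NK or T cell-like (31 cells). Cluster 10 (23 cells), led by Krtdap, Nov, Slc47a1 and Alpl, stayed unnamed with 2 of 7 VLMC markers. The paper uses Slc47a1 and Tshb as markers of pars tuberalis cells. Here Slc47a1 stood at 1083 CPM in cluster 10 and 2.19 CPM in the pars tuberalis cell-like cluster, where Tshb was a leading gene. The pars tuberalis cell-like cluster also passed for 3 of 6 other pituitary endocrine markers, and the macrophage or microglia-like cluster for 3 of 4 mast cell markers. The VLMC-like cluster also passed for 7 of 7 endothelial and 4 of 5 mural markers. Its 12 UMIs of the endothelial marker Cldn5 all came from 1 cell. A cluster's level of a gene is its summed UMIs per 1000000 UMIs of that cluster, with an exact Poisson 95% interval that covers counting error only. As all cells came from 1 library, there is no replicate error.

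Gstm1, Gsta4 and Prdx6 were highest in the ependymal-like cluster 7 with the tanycyte-like cluster 2 next, and Mgst1 was highest in cluster 2 with cluster 7 next. This made 4 of 8 members highest in a tanycyte-marker cluster, of which 1 was highest in the tanycyte-like cluster itself. The count rests on cluster 7, and fell to 1 when clustering with 10 components left 1 cluster that passed for tanycyte markers. With a resolution of 0.4, 1 cluster passed as well, but the count stayed at 4. For comparison, 21.8% of the 8794 genes with at least 100 UMIs had their highest level in cluster 2 or 7. As the members were chosen on these levels, nothing is read from the comparison. Gstm1, the most abundant mu-class transferase of these cells, reached 1635 CPM (95% interval 1510 to 1760) in the ependymal-like and 1143 CPM (1090 to 1190) in the tanycyte-like cluster. Next came the pars tuberalis cell-like cluster with 424 CPM (367 to 488) and the VLMC-like cluster with 404 CPM (370 to 441), whose intervals overlapped. All other clusters were between 24.7 CPM in erythrocyte-like cells and 260.2 CPM in cluster 10. The pars tuberalis cell-like cluster also held tanycyte markers. Rax stood there at 105 CPM, in 43.6% of cells, and Scn7a at 220.9 CPM. In the other clusters outside the tanycyte-marker clusters Rax was at most 21.9 CPM. The part of tanycyte cells or RNA in that cluster's levels of these 4 members was not tested. Gstm1 was thus graded over many clusters, and 69.9% of its 3914 UMIs came from the tanycyte-marker clusters.

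Gsta4, the transferase with activity on 4-hydroxynonenal, followed the same order at lower levels, with 556 CPM (485 to 634) in the ependymal-like, 296 CPM (272 to 322) in the tanycyte-like and 155 CPM (121 to 196) in the pars tuberalis cell-like cluster. Mgst1, a microsomal transferase that also has peroxidase activity, was the one of the 4 that was higher in the tanycyte-like (765 CPM, 725 to 806) than in the ependymal-like cluster (606 CPM, 532 to 687). In the pars tuberalis cell-like cluster it stood at 255.9 CPM (212 to 307) and in cluster 10 at 251.8 CPM (192 to 324). Of the 117 Mgst1 UMIs of the pars tuberalis cell-like cluster, 25 came from 1 cell. Of the members Mgst1 was the most concentrated, with 81.8% of its 1998 UMIs in the tanycyte-marker clusters, a level 15.5 times that of the other cells. Here and below, the other cells include the erythrocyte-like cluster, where Hbb-bs alone stood at 384000 CPM. This lowers the CPM of the other cells and raises each ratio.

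Prdx6 was the most abundant member. The ependymal-like cluster held 4713 CPM (4500 to 4930) and the tanycyte-like cluster 2095 CPM (2030 to 2160), followed by pars tuberalis cell-like cells (882 CPM) and NK or T cell-like cells (553 CPM). Over both tanycyte-marker clusters the level was 12.2 times that of the other cells. The corresponding ratios were 9.8 for Gsta4 and 7.96 for Gstm1. After every cell was thinned to 3000 UMIs, Prdx6, Gstm1, Mgst1 and Gsta4 were still found most often in the tanycyte-marker clusters. Other clusters held some of them often too. Gstm1 was found in 73.3% of VLMC-like and 61.8% of pars tuberalis cell-like cells, and Prdx6 in 80.6% of NK or T cell-like and 78.2% of pars tuberalis cell-like cells. A Prdx6 UMI was then found in 98.3% of tanycyte-like and 100% of ependymal-like cells (99.4% and 100% unthinned), with medians of 6 and 13.5 UMIs per cell. Gstm1 was found in 94.4% and 97.8%, Mgst1 in 89.9% and 84.8%, and Gsta4 in 59.8% and 76.1% of the thinned cells (99.4% and 100%, 98.9% and 93.5%, and 83.2% and 91.3% unthinned).

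Erythrocyte-like cells, led by the hemoglobin genes, gave the lowest levels of most members and serve as the background from free RNA, although red cells may hold some of these transcripts themselves. There, 7.02% of the thinned cells had a Gstm1 UMI, 14.5% a Prdx6 UMI, 2.48% a Gstp1 UMI and 1.24% each a Mgst1, Gsta4 or Mgst3 UMI (19.4%, 30.2%, 6.2%, 3.72%, 5.37% and 3.72% unthinned). The median depth of these cells was 7707.5 UMIs, close to the 7892 of tanycyte-like cells and the 8506.5 of ependymal-like cells. Much of that depth was hemoglobin, however, with Hbb-bs alone at 384000 CPM. At an equal total, erythrocyte-like cells thus hold fewer UMIs of other genes, and these shares may understate the background.

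**Figure D1:**
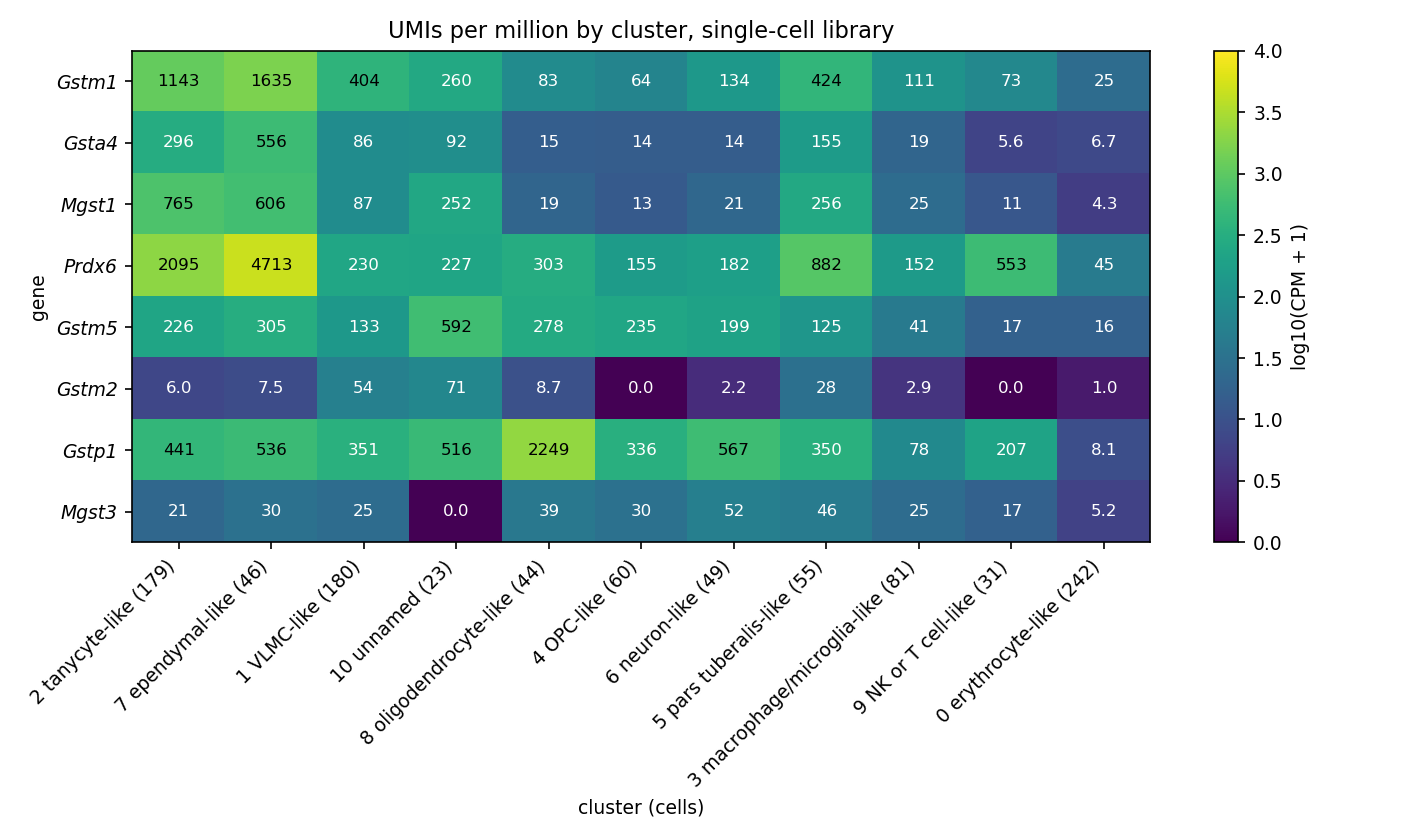
Level of each of the 8 genes (rows) in each of the 11 clusters (columns, with the number of cells) of the single-cell library, as UMIs per 1000000; color is log10(CPM + 1) and the printed number is the CPM. Gstm1, Gsta4, Mgst1 and Prdx6 are highest in clusters 2 and 7, Gstp1 in the oligodendrocyte-like cluster (2249 CPM) and Gstm2 in cluster 10 (71.3 CPM) and the VLMC-like cluster (54.0 CPM).

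The other 4 members had their highest level elsewhere. Gstp1, the pi-class transferase, reached 2249 CPM (2140 to 2360) in oligodendrocyte-like cells, 3.97 times the next level of 567 CPM (527 to 609) in neuron-like cells. The ependymal-like cluster (536 CPM, 466 to 612), cluster 10 (516 CPM, 429 to 616) and the tanycyte-like cluster (441 CPM, 411 to 473) followed. The ratio of the tanycyte-marker clusters to the other cells was 1.04 with the erythrocyte-like cells among the latter, and was not taken without them. The erythrocyte-like cells held 8.09 CPM of Gstp1, against 441.2 CPM over all other cells. Leaving them out would lower the ratio, so 1.04 cannot be read as a lead of the tanycyte-marker clusters. After thinning, oligodendrocyte-like cells had a median of 6 Gstp1 UMIs, against 1 UMI in tanycyte-like and 1.5 in ependymal-like cells.

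Gstm5, a mu-class transferase, was highest in cluster 10 with 592 CPM (498 to 698). The ependymal-like (305 CPM, 254 to 365), oligodendrocyte-like (278 CPM, 240 to 321), OPC-like (235 CPM, 201 to 274), tanycyte-like (226 CPM, 205 to 249) and neuron-like (199 CPM, 176 to 224) clusters lay close together, each interval overlapping that of the next. One cell of cluster 10 held 39 of the cluster's 141 Gstm5 UMIs, while all 23 of its cells had at least 1. Gstm5 was low in macrophage or microglia-like (41.3 CPM), NK or T cell-like (16.8 CPM) and erythrocyte-like cells (16.2 CPM). Mgst3, the other microsomal member, had only 250 UMIs in all. Its highest levels were 51.6 CPM (40.2 to 65.3) in neuron-like and 45.9 CPM (28.4 to 70.2) in pars tuberalis cell-like cells, against 20.9 CPM (14.8 to 28.6) in tanycyte-like and 5.23 CPM (2.61 to 9.36) in erythrocyte-like cells, and no UMI was found in cluster 10, where 3 UMIs would be 12.6 CPM.

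Gstm2 was the rarest member and was low in the tanycyte-marker clusters. It had 124 UMIs in 99 of the 990 cells, 67 of them in the VLMC-like cluster (54.0 CPM, 41.8 to 68.5) and 17 in cluster 10 (71.3 CPM, 41.6 to 114). The intervals of these 2 clusters overlapped. Pars tuberalis cell-like cells followed with 28.4 CPM (15.1 to 48.6). The tanycyte-like cluster held 11 UMIs, or 6.04 CPM (3.01 to 10.8), and the ependymal-like cluster 3 UMIs, or 7.51 CPM (1.55 to 21.9). Over both, the level was 0.437 times that of the other cells. In OPC-like and NK or T cell-like cells no Gstm2 UMI was found, where 3 UMIs would be 4.25 and 16.8 CPM.

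Cells with a Gstm2 UMI made up 29.4% of VLMC-like cells (22.9 to 36.7, exact Clopper-Pearson interval) and 47.8% of cluster 10 (26.8 to 69.4), against 6.15% of tanycyte-like cells (3.11 to 10.7) and 0.826% of erythrocyte-like cells (0.1 to 2.95). After thinning, the shares were 15.6%, 13.0%, 3.35% and 0%. Of the 53 VLMC-like cells with a Gstm2 UMI, 81.1% had a UMI of the fibroblast proteoglycan gene Lum, against 89.8% of the remaining cells of that cluster. Of the 11 such cells in cluster 10, 81.8% had a UMI of Slc47a1, a leading gene of that cluster, against 91.7% of its remaining cells. Gstm1 was present in most Gstm2 cells of the VLMC-like cluster too (49 of 53), at nearly the share of the remaining cells of that cluster (85.0%).

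The 7 transferases together were most abundant in the ependymal-like (3675 CPM), tanycyte-like (2898 CPM) and oligodendrocyte-like (2692 CPM) clusters, but the mixture differed between them. Each UMI counts 1 transcript regardless of its length, so shares of genes can be roughly compared within a cluster. Of the 50-base stretches in the last 500 bases of transcripts, 37.7% for Gstp1, 23.0% for Gstm1 and 7.43% for Gstm2 also occurred in other genes. The value was 0% for Gstm5, Gsta4, Mgst1 and Mgst3, so the shares of Gstp1 and Gstm1 are the least certain. Gstm1 gave 44.5% of transferase UMIs in the ependymal-like and 39.4% in the tanycyte-like cluster, with Mgst1 (16.5% and 26.4%), Gsta4 (15.1% and 10.2%) and Gstp1 (14.6% and 15.2%) next. In oligodendrocyte-like cells Gstp1 gave 83.5% and Gstm1 3.09%. In OPC-like and neuron-like cells Gstp1 (48.6% and 57.3%) was followed by Gstm5 (34.0% and 20.1%). Cluster 10 divided its UMIs between Gstm5 (33.2%), Gstp1 (28.9%), Gstm1 (14.6%) and Mgst1 (14.1%). Gstm2 reached 4.73% of transferase UMIs in the VLMC-like cluster and 4.0% in cluster 10, and 0.208% in the tanycyte-like cluster.

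**Figure D2:**
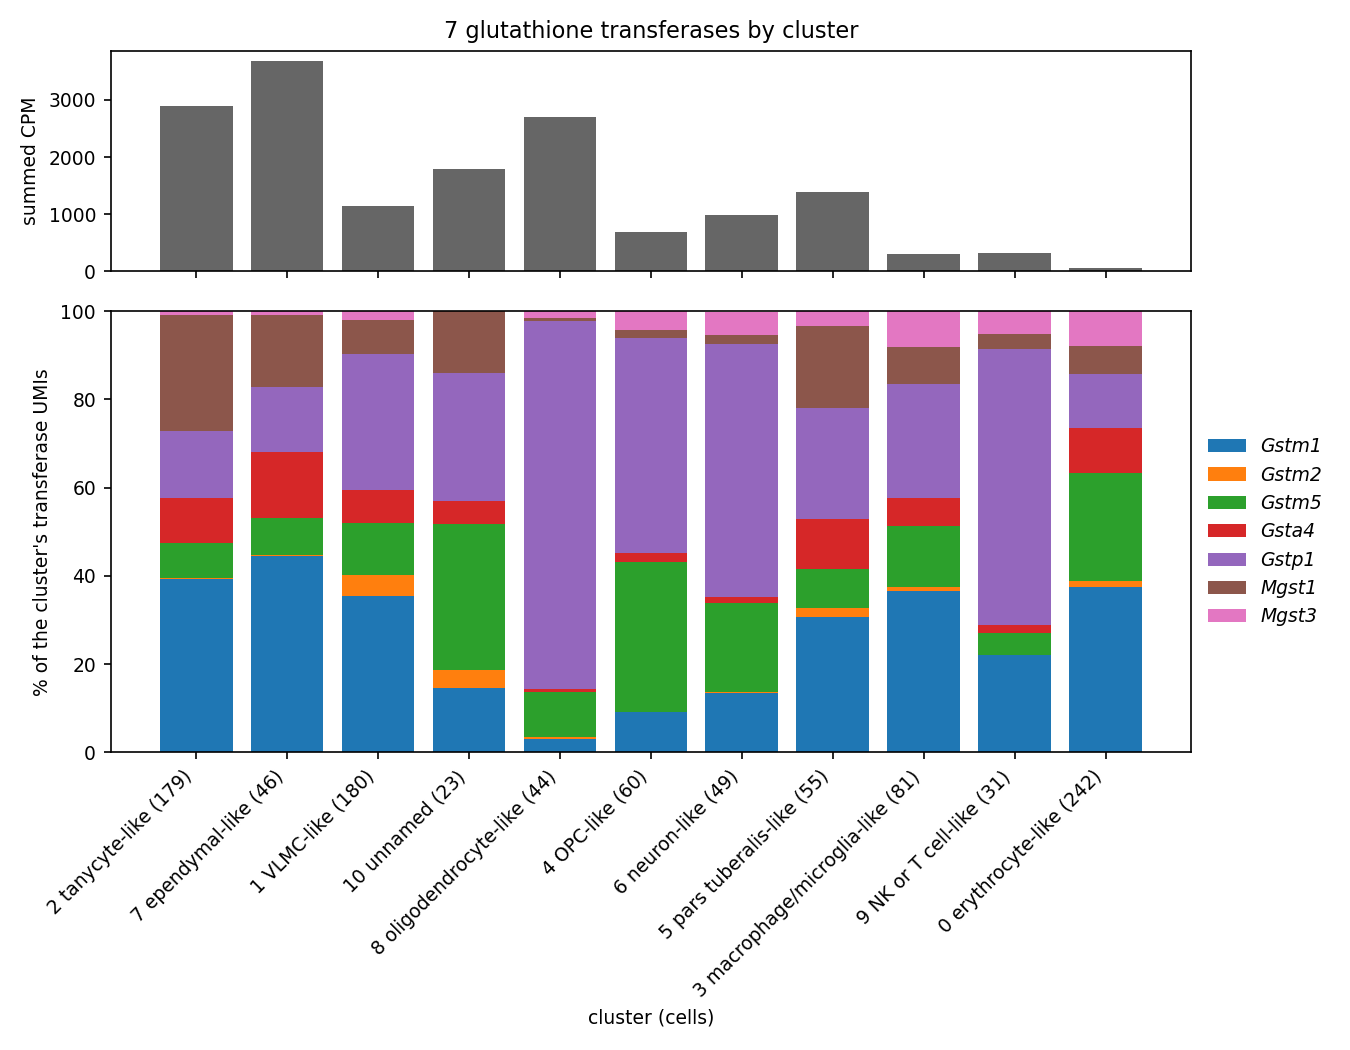
Summed CPM of the 7 glutathione transferases (top) and the percentage that each gene contributes to the transferase UMIs of a cluster (bottom), for the 11 clusters with their numbers of cells. Gstm1 leads in the ependymal-like (44.5%) and tanycyte-like (39.4%) clusters, and Gstp1 in the oligodendrocyte-like cluster (83.5%).

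The genes whose levels over the 11 clusters were most like each member were ranked by Pearson's r of log2(CPM + 1). These r values are descriptions over clusters of 1 library. Gstm1, Gsta4 and Mgst1 were near each other, since Gsta4 (r = 0.961) and Mgst1 (r = 0.96) headed the list of Gstm1, and Mgst1 (r = 0.973) that of Gsta4. Slc27a1, which encodes a fatty acid transport protein, was among the 3 nearest genes of both Gstm1 (r = 0.958) and Mgst1 (r = 0.964). Mgst1 also had Lgr4 (r = 0.971), a receptor for R-spondins, and Gsta4 had Nt5dc2 (r = 0.973). The nearest genes of Prdx6 were Zfand6 (r = 0.939), Pxmp2 (r = 0.938), which encodes a peroxisomal membrane protein, and Scrn2 (r = 0.935). For Gstm2 they were Kank2 (r = 0.954), Lbp (r = 0.933), which encodes the lipopolysaccharide-binding protein, and Cpxm2 (r = 0.927). Kank2 and Lbp were highest in cluster 10 (67.1 and 378 CPM) and next in the VLMC-like cluster (52.4 and 192.5 CPM), and Cpxm2 in the pars tuberalis cell-like cluster (100.6 CPM). For Gstp1 the nearest were Ywhaq (r = 0.975), Pigq (r = 0.972) and Tulp4 (r = 0.969), for Gstm5 Zfp358 (r = 0.965), Arhgap21 (r = 0.956) and Mcts2 (r = 0.951), and for Mgst3 Mgrn1 (r = 0.967), Map3k7 (r = 0.957) and Mepce (r = 0.949).

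The wider glutathione and thiol redox system was followed with 5 lists of 71 genes, of which 52 had at least 100 UMIs. Of these, 12 (23.1%) were highest in the tanycyte-marker clusters, close to the 21.8% of all genes, with 10 in the ependymal-like and 2 in the tanycyte-like cluster. Another 12 were highest in OPC-like cells. Among the other transferases, Gstt1 of the theta class had nearly equal levels in the ependymal-like (290 CPM) and tanycyte-like (269.5 CPM) clusters, Gsto1 of the omega class was highest in OPC-like cells (153 CPM) and Gstm7 in neuron-like cells (104 CPM). Of the other peroxiredoxins, which reduce peroxides with thioredoxin, 3 of 5 were highest in the ependymal-like cluster. Prdx1 stood at 1284 CPM there and 953 CPM in the tanycyte-like cluster, Prdx5 at 543 and 533 CPM, and Prdx2 was highest in OPC-like cells (869 CPM). Among peroxidases, Gpx4, which acts on lipid hydroperoxides, had 1332 CPM in the ependymal-like and 1310 CPM in the tanycyte-like cluster. Gpx1 was highest in macrophage or microglia-like cells (858 CPM) and the thioredoxin gene Txn1 in NK or T cell-like cells (397 CPM).

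Of the 9 measured genes of glutathione synthesis and turnover, 1 was highest in a tanycyte-marker cluster. This was Gclm, the modifier subunit of the enzyme that starts glutathione synthesis, with 190 CPM in the ependymal-like cluster. Slc3a2, a subunit of amino acid exchangers, was highest in macrophage or microglia-like cells (402 CPM) and Slc1a1, a glutamate and cysteine carrier, in OPC-like cells (298 CPM). Of the 11 measured Nrf2 regulators and targets, 1 was highest in a tanycyte-marker cluster. The pentose phosphate enzymes Taldo1 (1204 CPM) and Tkt (309 CPM) were highest in oligodendrocyte-like cells and the autophagy receptor gene Sqstm1 in neuron-like cells (307 CPM).

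The bulk libraries held 4928456 to 13816596 counts and 17874 to 40852 detected genes. The number of detected genes varied within both groups (17874 to 34942 in wt and 25910 to 40852 in mut). Summed pituitary hormone markers ranged from 706 to 15300 CPM in wt and from 971 to 20200 CPM in mut, and passed 10000 CPM in wt 1, mut 1 and mut 3. These libraries were not alike. In mut 1 and mut 3 nearly all of the sum was Pomc (15890 and 19680 CPM). In wt 1 it held Pomc (6421 CPM), Prl (3969 CPM) and Fshb (2611 CPM). Of the 20466 genes tested, edgeR's quasi-likelihood test called 0 (0%) at an adjusted p under 0.05, the lowest adjusted p being 0.0541, and 1661 genes had an unadjusted p under 0.05. DESeq2 called 361 genes and limma-voom 0. For 3.18% of tested genes every mut library was lower than every wt library and for 5.83% every mut library was higher. Bulk levels below are counts per 1000000 after TMM normalization, again abbreviated CPM.

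Gstm2 was 4.11-fold lower in mutant ME. It stood at 88.8, 102 and 80.0 CPM in wt 1 to 3 (90.2 ± 10.9, SD, n = 3) and at 30.4, 16.7, 17.0 and 23.6 CPM in mut 1 to 4 (21.9 ± 6.47, SD, n = 4). The groups did not overlap, and the lowest wt library was above the highest mut library. The log2 fold change was -2.04 ± 0.31 (SE), the 188th lowest of 20466 genes, so that 0.919% of genes were at or below it. Gstm2 was the one member of 8 whose groups did not overlap, and it had been chosen for this. As these were whole tissue samples, fewer cells of a type and less RNA per cell cannot be told apart.

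The members highest in the tanycyte-marker clusters, Gstm1, Prdx6, Mgst1 and Gsta4, overlapped between the groups. Gstm1 stood at 775, 1041 and 791 CPM in wt and 1525, 1255, 1069 and 807 CPM in mut, with a log2 fold change of 0.42 ± 0.31. The mean was higher in mut, opposite to its neighbour Gstm2, but mut 4 lay within the wt range. Prdx6 ranged from 1563 CPM in wt 1 to 4099 CPM in wt 3, with wt 2 at 3535 CPM, and stood at 3153, 2180, 1843 and 1674 CPM in mut (log2 fold change -0.47 ± 0.39). Here wt 1 lay below every mut library and the other wt libraries above. Mgst1 stood at 204, 342.5 and 399 CPM in wt and 265, 145, 183 and 158 CPM in mut (-0.75 ± 0.33), with only mut 1 inside the wt range. Gsta4 stood at 136, 203 and 182 CPM in wt and 192.5, 109, 109 and 83.3 CPM in mut (-0.49 ± 0.33), with mut 1 again inside the wt range.

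The remaining members overlapped too. Gstp1 stood at 405, 543 and 501 CPM in wt and 462, 508, 416 and 364 CPM in mut (-0.14 ± 0.27). Gstm5 stood at 122, 191 and 297 CPM in wt and 208, 172, 200.1 and 224.5 CPM in mut (-0.02 ± 0.32), and the mutant libraries all lay inside the wt range. Mgst3 stood at 34.7, 48.9 and 81.4 CPM in wt and 41.5, 25.5, 35.2 and 45.4 CPM in mut (-0.58 ± 0.36). Of the 8 log2 fold changes, 6 were thus negative, that of Gstm1 was positive and that of Gstm5 was near 0 and took either sign under other settings. The median over all genes tested was 0.13. Single libraries moved the smaller values, as the log2 fold changes of Prdx6 and Mgst3 were -0.81 and -0.85 without wt 1 and -0.18 and -0.17 without wt 3.

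How many members separated depended on single libraries. Without wt 1, Mgst1, Mgst3 and Prdx6 joined Gstm2 in lying lower in every mut library (4 of 8, where 10.6% of tested genes did so). Without mut 1, Gsta4 and Mgst1 joined it (3 of 8, 7.45% of genes), and without wt 2 or without mut 4 Gstm1 was higher in every mut library (10.3% and 7.01% of genes). Another alternative, chosen after seeing the data, left out the 3 libraries past 10000 CPM in summed pituitary markers, 2 of them mainly for Pomc. With 2 libraries left in each group, 5 of 8 members were lower without overlap (19.2% of genes), namely Gstm2, Gsta4, Mgst1, Mgst3 and Prdx6. Gstm2 separated in each of these fits, with a log2 fold change of -2.22 to -1.91 over all 16 alternatives.

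**Figure D3:**
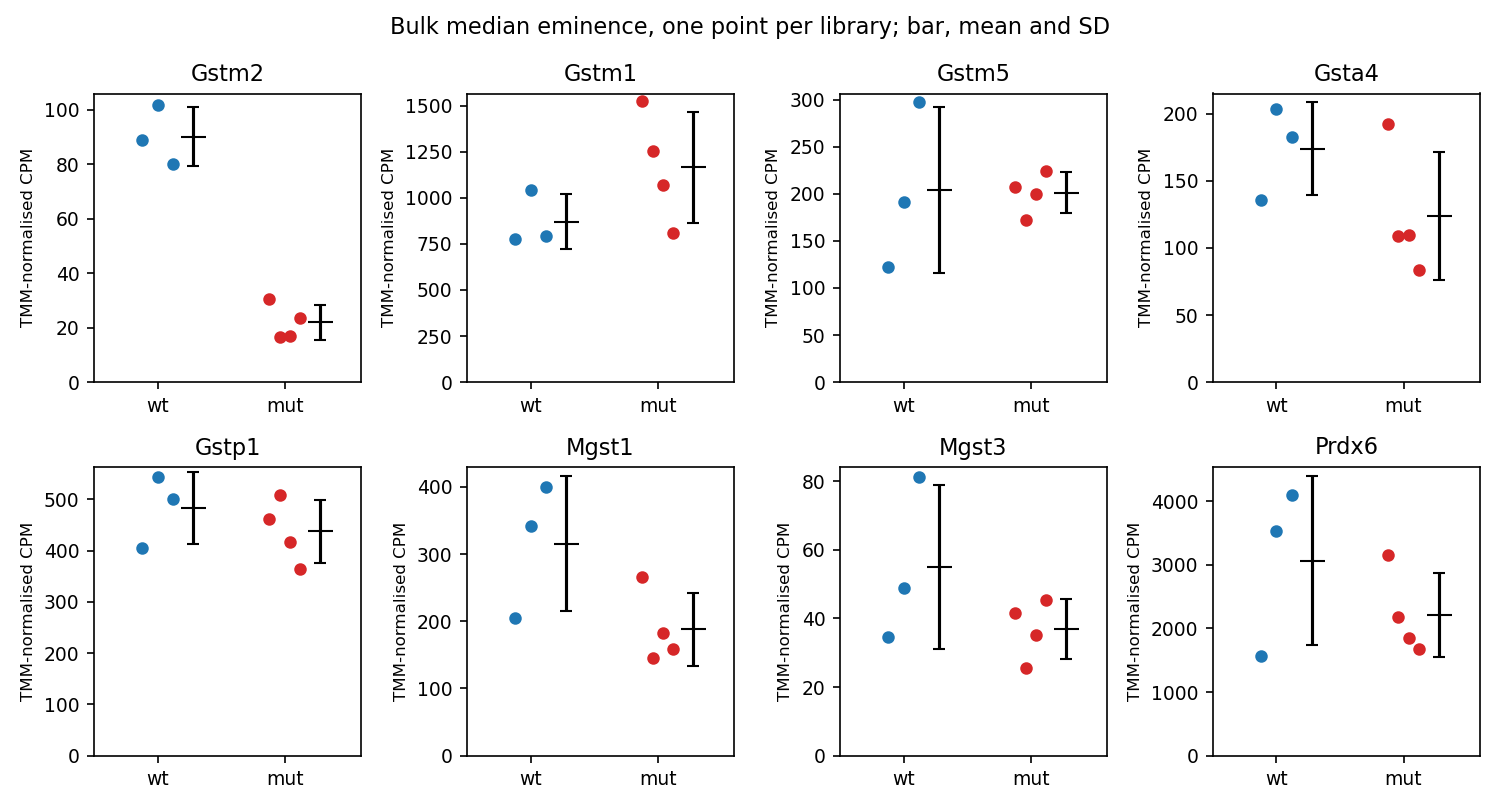
TMM-normalized CPM of the 8 genes in each wt (3, blue) and mut (4, red) bulk library; the bar beside each group is the mean and SD, and each axis starts at 0. The groups do not overlap for Gstm2 (80.0 to 102 against 16.7 to 30.4 CPM) and overlap for the other 7 genes.

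Per kilobase of all annotated exons of a gene, Prdx6 (638 CPM per kb), Gstm1 (590.0) and Gstp1 (312) were the most abundant members in wt ME, followed by Gstm5 (159), Mgst1 (157), Gsta4 (137), Gstm2 (53.7) and Mgst3 (50.1). This allows a rough comparison only, as the exons of all transcripts are merged (4804 bases from 9 transcripts for Prdx6 and 1473 bases from 4 for Gstm1). In mut ME the order began with Gstm1 (790.0 CPM per kb) and Prdx6 (460.0) and ended with Mgst3 (33.6) and Gstm2 (13.1). Before division by length, the mut mean of Prdx6 (2212 CPM) was above that of Gstm1 (1164 CPM).

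Summed VLMC, endothelial and pars tuberalis cell markers were lower in mut, as Gstm2 was, but single markers differed in direction. No cluster was named endothelial, although the VLMC-like cluster passed for 7 of 7 endothelial markers. The endothelial marker Cldn5 had only 16 UMIs, in 5 of all 990 cells. Its absence from the 53 VLMC-like cells and the 11 cells of cluster 10 with Gstm2 therefore cannot tell whether these were endothelial. No marker list stood for cluster 10. The summed level of 7 VLMC markers was 1180 to 3080 CPM in wt and 627 to 983 CPM in mut, and that of 7 endothelial markers 284 to 453 CPM in wt and 84 to 155 CPM in mut, in both cases without overlap. In each of these lists 3 of 7 markers were lower in every mut library, among them Lum (log2 fold change -2.07) and Dcn (-2.29) of VLMCs and Plvap (-2.35) and Emcn (-1.78) of endothelial cells. The other 4 markers of each list overlapped, and some had positive log2 fold changes, namely Pdgfra (0.74), which OPCs also express, Slc6a13 (0.58) and Igfbp2 (0.04) of VLMCs and Cdh5 (0.77) of endothelial cells. No marker of either list was at 0 in any library. The sum of pars tuberalis cell markers was also lower (2290 to 6440 CPM in wt and 595 to 1980 CPM in mut, 3 of 8 without overlap). Its largest parts in wt were Cga (mean of 1999 CPM) and Chgb (1140 CPM). Tshb (log2 fold change 0.565) and Eya3 (0.11) had positive values and overlapped, and the rest of the 8 had negative ones. The sum of 8 oligodendrocyte markers was lower too (1510 to 3420 CPM in wt and 666 to 1490 CPM in mut, 1 of 8 without overlap). The sum of 12 tanycyte markers overlapped (1380 to 1800 CPM in wt and 1180 to 1870 CPM in mut), with 2 of 12 markers higher in every mut library. Summed OPC markers were higher in mut (129 to 248 CPM in wt and 287 to 875 CPM in mut, 4 of 6 without overlap). Summed astrocyte markers overlapped (1570 to 5220 CPM in wt and 2570 to 5580 CPM in mut), yet 6 of 8 of these markers were higher in every mut library.

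Library by library, Gstm2 and the VLMC markers had unlike orders in wt, while in mut both were highest in mut 1 and next in mut 4. The VLMC sum was 1179 CPM in wt 1, against 2881 and 3080 CPM in wt 2 and 3, while Gstm2 was 88.8 CPM in wt 1 and 102 and 80.0 CPM in the others. Dcn alone gave 826, 2264 and 2545 CPM of the sums of wt 1 to 3. In mut 1 the VLMC sum of 983 CPM came near that of wt 1, and Gstm2 was 30.4 CPM. In mut 2 to 4 the sums were 654, 627 and 660 CPM, and Gstm2 was 16.7, 17.0 and 23.6 CPM. The part of these cell types in the lower Gstm2 level was not tested.

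**Figure D4:**
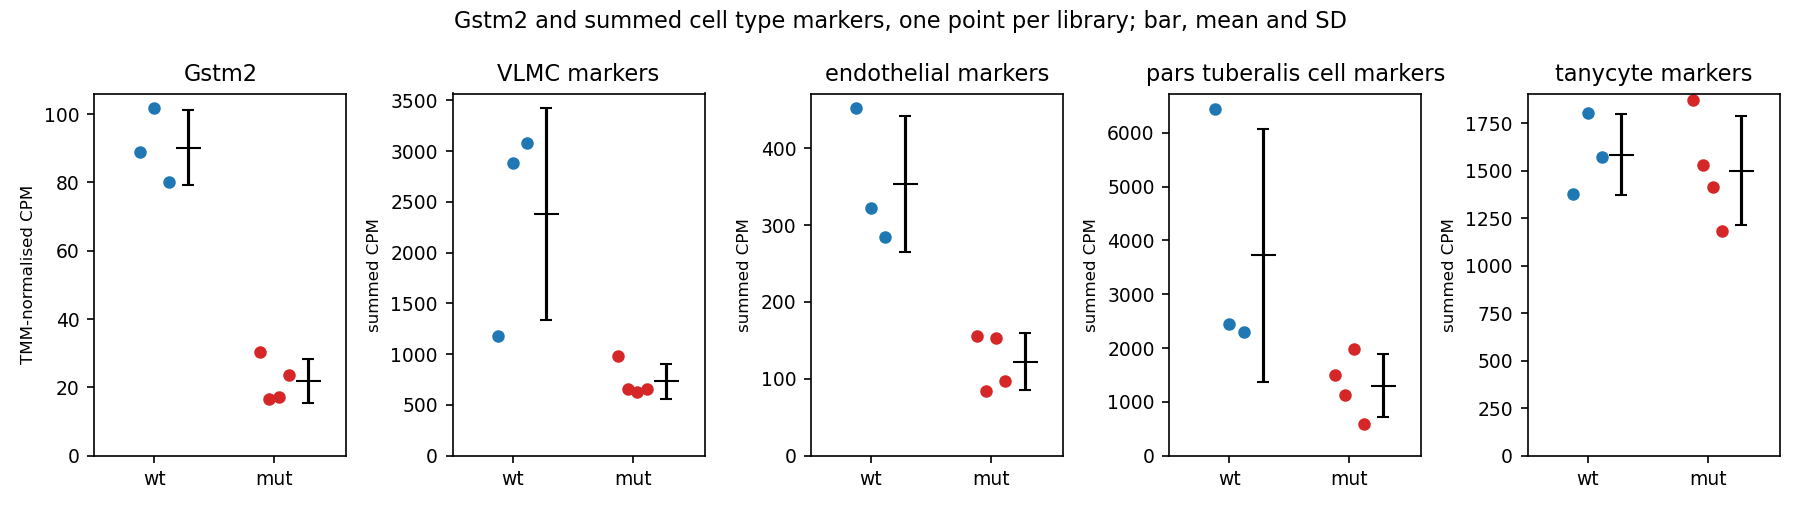
Gstm2 (TMM-normalized CPM) and the summed CPM of VLMC (7), endothelial (7), pars tuberalis cell (8) and tanycyte (12) markers in each wt (3) and mut (4) bulk library; points are libraries, bars are the mean and SD, and axes start at 0. Gstm2 and the sums of VLMC, endothelial and pars tuberalis cell markers do not overlap between the groups, while the tanycyte sums do (1380 to 1800 against 1180 to 1870 CPM).

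The bulk genes most like Gstm2 over the 7 libraries (Pearson's r of log2(CPM + 1), a description over libraries that differ by group) were F11r (r = 0.986), which encodes a junctional adhesion molecule, Efemp1 (r = 0.981), which encodes the matrix protein fibulin 3, Plpp1 (r = 0.977), a phospholipid phosphatase gene, and Ifi27l2a (r = 0.974), an interferon-inducible gene. The fifth gene had no symbol in the files and stood below 2 CPM. F11r stood at 110, 136 and 80.7 CPM in wt and 32.2, 24.6, 23.7 and 28.6 CPM in mut. Efemp1 stood at 321, 389.5 and 336 CPM in wt and 155, 103, 86.7 and 91.3 CPM in mut. In the single cells Efemp1 (1698 CPM) and Plpp1 (136 CPM) were highest in the VLMC-like cluster, where Efemp1 was far above its 14.9 CPM in the tanycyte-marker clusters. F11r (281.5 CPM) and Ifi27l2a (1008 CPM) were highest in macrophage or microglia-like cells. The genes most like Gstm2 in bulk were thus highest in different clusters.

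The mu-class neighbours of Gstm2 on chromosome 3 had log2 fold changes of both signs. In chromosomal order, the log2 fold changes were -0.02 for Gstm5, -0.35 ± 0.36 for Gstm7, 1.12 ± 0.34 for Gstm6, -2.04 for Gstm2, 0.42 for Gstm1 and -1.28 ± 0.41 for Gstm4, and Gstm3 was below the filter. Gstm6 and Gstm4 are named because their libraries did not overlap, a choice made after their values were seen. Gstm6 stood at 17.1, 30.1 and 37.4 CPM in wt and 77.2, 60.3, 51.8 and 55.6 CPM in mut, every mut library being higher. Its adjusted p by edgeR was 0.444. Gstm4 stood at 29.2, 40.6 and 88.1 CPM in wt and 27.8, 22.3, 21.7 and 15.0 CPM in mut, every mut library being lower (adjusted p by edgeR 0.461). Neither passed the test. Of the 50-base stretches of Gstm6, 5.97% occurred in other transcripts, most often those of Gstm3, and 0% of those of Gstm4. In single cells Gstm6 (91.2 CPM) and Gstm4 (27.7 CPM) were highest in neuron-like cells, and in the tanycyte-marker clusters they stood at 52.7 and 13.9 CPM. Gstm2 and Gstm6 lay on opposite sides of 0 under all 16 alternatives. Both were chosen for their values, and the alternatives refit the same libraries, so this adds no separate evidence.

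**Figure D5:**
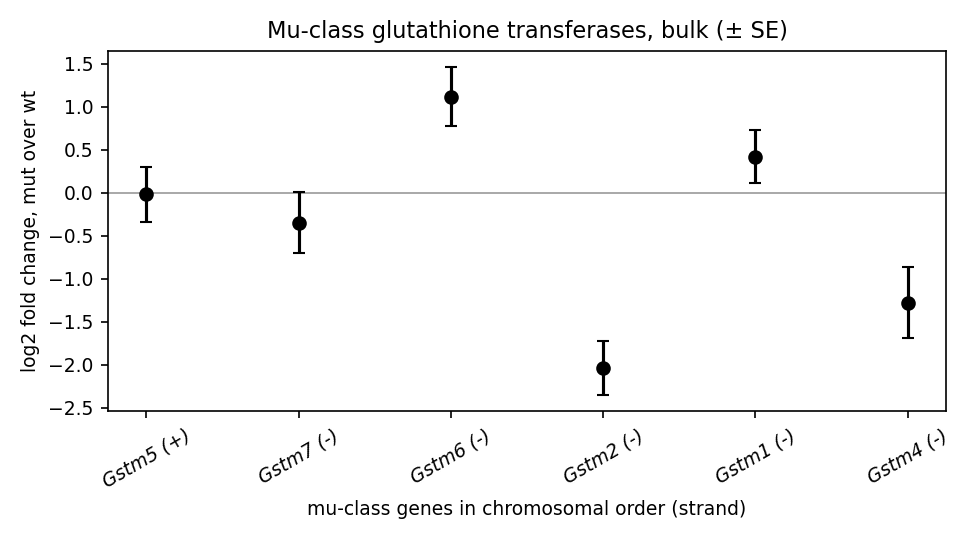
Log2 fold change between mut (4) and wt (3) bulk libraries, with SE, for the 6 mu-class glutathione transferase genes that passed the filter, in their order along chromosome 3 with the strand of each. Gstm2 (-2.04) and Gstm4 (-1.28) lie below 0 and Gstm6 (1.12) above, with Gstm5, Gstm7 and Gstm1 between -0.35 and 0.42.

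Of the 68 genes of the 5 lists that were tested in bulk, 0 were called in either direction by edgeR, where 0% of all genes were. DESeq2 and limma-voom also called 0 of them, and 6 had an unadjusted p under 0.05. The median log2 fold change of the lists was -0.22, against 0.13 over all genes, and the lowest adjusted p was 0.444. In 6 of the 68 every mut library was lower (background 3.18%) and in 1 every mut library was higher (background 5.83%). The 7 genes were Gstm4, the glutathione synthetase gene Gss (log2 fold change -0.69 ± 0.32), Ggt5 (-0.88 ± 0.44) and Chac2 (-0.74 ± 0.39), which act in the breakdown of glutathione and its conjugates, the mitochondrial enzymes Txnrd2 (-0.46 ± 0.32) and Sod2 (-0.55 ± 0.26), and Gstm6, and they are named after their values were seen. Their adjusted p by edgeR ranged from 0.444 to 0.774. Gss stood at 27.0, 38.1 and 44.5 CPM in wt and 22.0, 23.7, 18.7 and 25.9 CPM in mut.

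By list, 0 of 15 other transferases were called (median log2 fold change -0.35), as were 0 of 5 other peroxiredoxins (-0.34), 0 of 15 genes of glutathione synthesis and turnover (-0.18), 0 of 19 peroxidases and thiol reductases (-0.21) and 0 of 14 Nrf2 regulators and targets (-0.04). Among the latter, the target Nqo1 and the regulator Nfe2l2, which encodes Nrf2, stood at log2 fold changes of -0.28 ± 0.39 and -0.46 ± 0.33 and are named for their textbook role, after their values were seen. The genes abundant in tanycyte-marker clusters, Prdx1 (-0.48 ± 0.35), Prdx5 (-0.57 ± 0.33), Gpx4 (-0.09 ± 0.28) and Gstt1 (-0.19 ± 0.31), overlapped between the groups, as Prdx6, Mgst1 and Gsta4 did.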

How the data were processed

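The authors deposited UMI counts of 990 cells from 1 single-cell library and a table of raw read counts for 3 wt and 4 mut bulk libraries. The aligner and counter of the bulk counts are not given in the sources used here. The submitters' processing notes name Cell Ranger 2.0.1, DESeq2, GRCm38 and mm10 without their roles. Samples were grouped by their labels, and 0 columns stayed unused. The members, gene lists and markers were chosen with earlier results of these data known.

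Bulk counts were fitted over all genes with edgeR 4.0.16 in R 4.3.3 (TMM, filterByExpr, quasi-likelihood test, Benjamini-Hochberg adjusted p under 0.05), without covariates, and compared with DESeq2 1.42.0, limma-voom (limma 3.58.1) and other scalings and filters. P-values measure the spread between libraries of single mice, which includes differences in dissection and library preparation. Clustering of the cells used Seurat 5.3.0 on log-normalized UMIs (factor of 10000, means of 0.02 to 8, dispersion of at least 0.5, 20 components, resolution 0.8) on 4814 of 4844 variable genes, leaving out 30 of the members and lists. Scrublet in Scanpy 1.11.5 (expected rate 0.06) called 6 doublets, which were kept. Thinning drew 3000 UMIs from every cell. Named genes were all members, the 3 genes of each list with the most UMIs, the 3 genes (5 in bulk, for Gstm2) most like each member, Rax, Hbb-bs, marker sums and list genes past the threshold, of which there were 0. Hbb-bs stood at 1737 to 2814 CPM in every cluster but the erythrocyte-like. Intervals cover counting error at 95%. The steps were tested on simulated data in Python 3.11.15, R and SciPy 1.17.1.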

Additional observations from a re-analysis of the deposited data

Results flagged for a closer look

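In the 4 mut libraries, 47 named genes and marker sums were searched for a library that stands apart (by the gap to the nearest library over the whole range, against Dixon's critical value for 4 samples), and 3 were found, where chance gives about 1 in 20. The summed VLMC markers had a ratio of 0.909, with mut 1 at 983 CPM above 627 to 660 CPM in the others. Plpp1, one of the genes most like Gstm2, had a ratio of 0.835, with mut 1 at 58.0 CPM above 28.6 to 33.4 CPM. Gsto1, an omega-class transferase, had a ratio of 0.909, with mut 1 at 44.8 CPM above 32.9 to 34.0 CPM. Mut 1 was the library apart in all 3, and it was also the mut library with the highest Gstm2, Gstm1, Gsta4, Mgst1 and Prdx6.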

How the results depend on the processing

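The bulk log2 fold change of Gstm2 lay between -2.22 and -1.91 in all 16 alternatives, while the other members kept their sign in 16 of 16 (Gstm1 0.22 to 0.60, Gsta4 -0.96 to -0.34, Mgst1 -1.24 to -0.52, Mgst3 -0.85 to -0.17, Prdx6 -0.94 to -0.18), 15 of 16 (Gstp1 -0.28 to 0.01) or 8 of 16 (Gstm5 -0.31 to 0.37). For each member, 15 or 16 of the 16 values lay within 1 SE of the main value. The 0 genes called by edgeR became 1 with upper-quartile scaling, 1 with median-of-ratios size factors, 3 with library sizes alone, 240 without a filter on low counts (47682 genes tested), 13 with at least 10 counts in every library (12402 genes tested) and 361 with DESeq2, and 0 to 45 when each library was left out in turn (45 without wt 1, 16 without wt 3). Called list genes stayed at 0 in every alternative. The 7 list genes without overlap became 7 to 28 when each library was left out (28 without wt 1, 13 without wt 2, 15 without mut 1). The share of all genes grew too. Without wt 1, 22 of 68 list genes were lower and 6 higher, against 10.6% and 21.9% of all genes. Without wt 2 they were 7 and 6 of 68 (5.4% and 10.3% of all genes). Without mut 1 they were 12 and 3 of 67 (7.45% and 12.3% of all genes). The list genes without overlap became 40 without the 3 libraries past 10000 CPM in summed pituitary markers, with fewer libraries to overlap. Of these genes, 30 were lower and 10 higher, where 19.2% and 34.6% of all genes were so. Libraries with the same replicate number did not deviate together (r of their deviations from the group means -0.4, -0.01 and -0.18). Pairs with different numbers were not compared, so whether same-numbered libraries shared a batch was not tested. With the replicate block 0 genes were called and Gstm2 had a log2 fold change of -2.13. With 10 components 1 cluster in place of 2 passed for tanycyte markers and 1 member in place of 4 was highest in it. In the other 7 single-cell alternatives this count was 4, also with a resolution of 0.4, where 1 cluster passed for tanycyte markers. Ratios of the tanycyte-marker clusters to other cells kept their side of 1 in all 8 alternatives, except for Mgst3 in 1 of 8 (1.02 after thinning). None of these alternatives left out the erythrocyte-like cells. Doing so would lower each ratio, and that of Gstp1 (1.04) may then change its side of 1. Depth limits Gstm2 most, as 3 UMIs in the ependymal-like cluster are 7.51 CPM.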
